A study of Homo sapiens with 8 samples.

Results

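RNA from a KCL-22 population that had grown out under nilotinib was compared gene by gene with RNA from a population kept in vehicle. The comparison covers every gene with an FPKM (fragments per kilobase of transcript, scaled to library size) of at least 5 in the higher of both libraries, which was 9522 of 31402 entries. It uses 2 of the study's 8 libraries, and the other 6 are given beside them where they place a value.

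KCL-22 is a human line from chronic myeloid leukemia in blast crisis, and it carries the BCR-ABL fusion kinase. A pool of these cells had been transduced with the ClonTracer barcode library, in which a heritable DNA tag marks the progeny of each starting cell, so every RNA library comes from barcoded cells. The nilotinib-resistant population had spent 27 days in nilotinib at 0.3 µM, and the vehicle population 7 days in 0.1% DMSO. The further resistant populations had spent 27 days in imatinib or 21 days in GNF-2, both at 2.5 µM. Clones 1, 2 and 4 had been sorted from GNF-2-resistant cells and Clone 3 from imatinib-resistant cells; Clone 3 was labelled resistant to imatinib and nilotinib, Clone 4 to all 3 inhibitors, and Clones 1 and 2 to GNF-2. The nilotinib and vehicle groups have 1 library each, so no spread between replicates exists and no test is given; each difference compares these libraries. Drug exposure and days in culture cannot be told apart. Both libraries are populations of many barcoded cells, and a lower value can mean fewer cells that use a gene or less of its RNA per cell, which bulk RNA cannot tell apart.

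BCR-ABL is a constitutively active tyrosine kinase that drives STAT5, RAS-MAPK and PI3K-AKT signalling and, through them, survival genes, cyclins and MYC. Nilotinib and imatinib occupy the ATP site of the ABL kinase domain, while GNF-2 binds the myristate pocket. Cells can escape through mutations in the kinase, more of the kinase, drug efflux or other kinases, of which RNA levels can bear on the last 3.

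Both libraries looked alike in size: the FPKM summed to 521874 in the nilotinib population and 507984 in vehicle, and 11877 and 11600 genes had an FPKM of at least 1. The 10 most abundant genes held 9.07% of the sum in the nilotinib population and 8.05% in vehicle. Depth was estimated from the smallest step of 446 intronless genes at about 30000000 fragments in the nilotinib population and 25000000 in vehicle, a rough figure that puts about 60 and 51 fragments behind an FPKM of 1 in a transcript of 2 kilobases. Myeloid and progenitor markers were present only in part. GATA2, a progenitor and basophil transcription factor, stood at 221 FPKM in the nilotinib population and 219 in vehicle. The histamine-forming enzyme HDC stood at 519 FPKM under nilotinib and 684 in vehicle. Myeloid SPI1 stood at 18.2 FPKM under nilotinib and 29.9 in vehicle, while CD34 (0.66 FPKM under nilotinib, 0.38 in vehicle), KIT (0.0052 FPKM under nilotinib, 0 in vehicle) and MPO (0.036 FPKM under nilotinib, 0.070 in vehicle) were near 0 in both. Globin, glycophorin, COL1A1, PECAM1 and EPCAM values were all under 0.2 FPKM in both libraries. CD33 was at 1.17 FPKM under nilotinib and 2.57 in vehicle, GATA1 at 0.14 FPKM under nilotinib and 1.38 in vehicle, and COL1A2 at 0.14 FPKM under nilotinib and 0.87 in vehicle. The lymphoid CD79A and CD3D and the platelet gene GP9 were higher and are described with the lineage genes.

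The target genes themselves lay close together. ABL1 (chr9:133589268-133763062, GRCh37, as are all gene positions here) was at 86.6 FPKM in the nilotinib population and 105 in vehicle, a log2 difference of -0.28. BCR (chr22:23522552-23660224) was at 91.0 FPKM in the nilotinib population and 87.5 in vehicle, a log2 difference of 0.06. Neither came near 2-fold in either direction, and a value per gene holds fusion and normal transcripts together. Across all 8 libraries ABL1 ranged from 65.3 to 110 FPKM and BCR from 58.8 to 106.

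Over the 9522 genes the median difference of log2(FPKM + 1), nilotinib minus vehicle, was 0.05, with a standard deviation across genes of 0.55. Most genes differed little: 86.0% lay within 1.5-fold. By any amount, 5294 genes (55.6%) were higher in the nilotinib population and 4228 (44.4%) lower, the shares beside which the gene lists below stand. A gene under 5 FPKM in 1 of both libraries entered through the other alone, in the gene lists as over all genes. At least 2-fold apart (a difference of 1 or more on this scale) were 439 genes, 4.61% of those compared. Of these, 236 (2.48%) were higher in the nilotinib population and 203 (2.13%) lower. The split changed with level. Among genes at 5 to 10 FPKM, 88 were higher and 59 lower, whereas among the 851 genes at 100 FPKM or more, 6 were higher and 26 lower. The split also depended on scaling, since 53.8% of the 439 were higher with values as deposited and 43.8% after rescaling by median ratios (188 higher, 241 lower). The genes just inside the threshold were DPYSL2 (32.9 FPKM in the nilotinib population, 16.0 in vehicle) and SDC4 (3.28 FPKM under nilotinib, 7.56 in vehicle). Those just outside were PSPH (16.4 FPKM under nilotinib, 7.72 in vehicle) and INSIG2 (29.9 FPKM under nilotinib, 60.8 in vehicle).

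**Figure D1:**
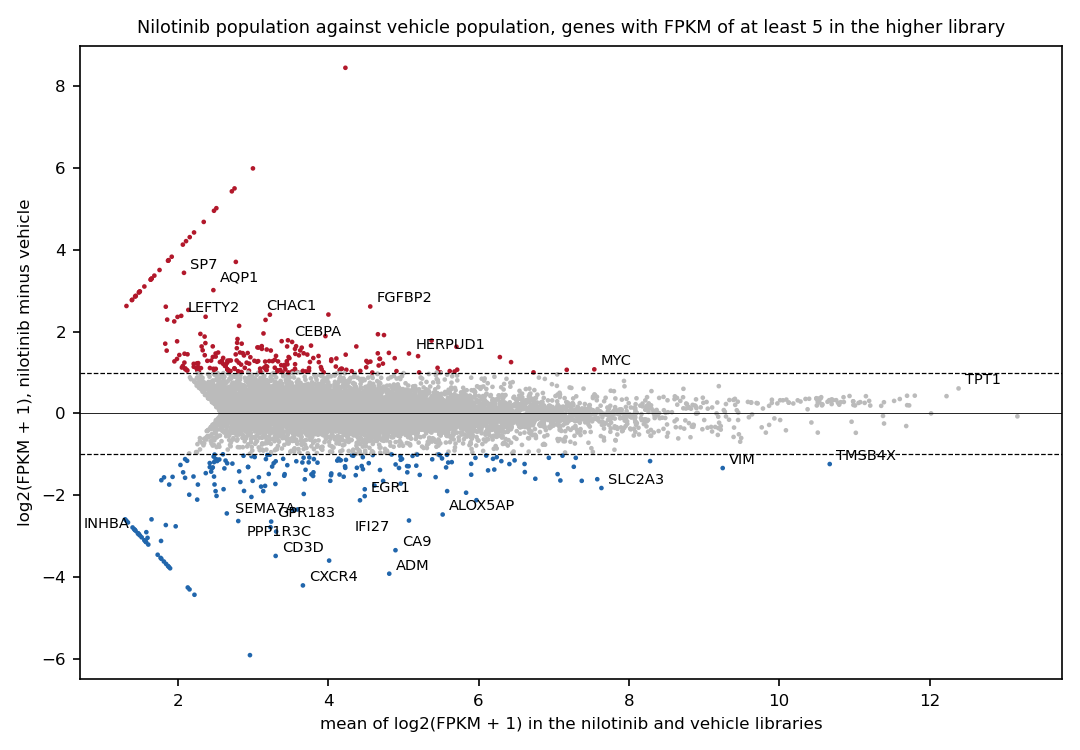
Each of the 9522 genes is a point, with the mean of log2(FPKM + 1) over the nilotinib and vehicle libraries on the horizontal axis and the difference, nilotinib minus vehicle, on the vertical axis. Red points are at least 2-fold higher and blue points at least 2-fold lower in the nilotinib population; the slanting lines of points at the left are genes listed at 0 in one library. The most abundant points, TPT1 among them, sit near or just above 0, while CXCR4, ADM and CA9 stand far below it.

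Lower in the nilotinib population, the largest difference among genes above 0 in all 8 libraries was that of CXCR4 (chr2:136871919-136875725), the receptor for the chemokine CXCL12 that holds blood cells in the marrow. CXCR4 was at 1.94 FPKM in the nilotinib population, against 53.4 in vehicle, a log2 difference of -4.21. In the other libraries it was at 15.6 FPKM under imatinib, 1.72 under GNF-2 and 0.950, 1.35, 18 and 0.034 in Clones 1 to 4. Vehicle was thus the highest of the 8 libraries, and the nilotinib population stood with the GNF-2 population and Clones 1 and 2. ADM (chr11:10326642-10328923), which encodes the vasodilator peptide adrenomedullin, was at 6.21 FPKM in the nilotinib population, against 108 in vehicle (-3.92). INHBA, the activin A subunit, was at 0.091 FPKM in the nilotinib population, against 7.17 in vehicle (-2.91), and did not exceed 1.76 in the further 6 libraries. The potassium channel gene KCNH2 was at 0.39 FPKM under nilotinib, against 8.21 in vehicle, and reached 10.3 in Clone 2, so vehicle was not its highest library. GPR183, an oxysterol receptor that guides lymphocytes and myeloid cells, was at 2.77 FPKM under nilotinib, against 22.6 in vehicle. PPP1R3C, which targets a phosphatase to glycogen, was at 1.798 FPKM under nilotinib, against 16.4 in vehicle. All of these were present in vehicle and low in the nilotinib population; the remaining 9 of the 15 largest in that set were IFI27, CD48, ALOX5AP, SEMA7A, FXYD6, PLAC8, C10orf10, HILPDA and FAM83A, with log2 differences from -2.62 to -2.11. CD3D, CA9 and CYTIP, each listed at 0 in a clone, had log2 differences of -3.49, -3.35 and -2.78 and stand outside that set, as do genes listed at 0 in the nilotinib population.

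Higher in the nilotinib population, the order was likewise taken among genes above 0 in all 8 libraries. SP7 (chr12:53720360-53730004), which encodes the bone transcription factor osterix, was at 12.9 FPKM in the nilotinib population, against 0.28 in vehicle (log2 difference 3.44). In Clone 2 SP7 reached 114 FPKM, and under imatinib and GNF-2 it was at 2.33 and 5.43. SP7 was therefore not highest in the nilotinib library. The water channel AQP1 was at 14.8 FPKM under nilotinib, against 0.95 in vehicle (3.02). The actin-bundling gene ESPN was at 9.58 FPKM under nilotinib, against 0.83 in vehicle. CLEC3B, or tetranectin, was at 20.5 FPKM under nilotinib, against 3.04 in vehicle. MADCAM1, a ligand of the integrin α4β7, was at 10.7 FPKM under nilotinib, against 1.27 in vehicle. COL6A2, a chain of collagen VI, was at 8.02 FPKM in the nilotinib population and 0.76 in vehicle. STMN3, a microtubule regulator, was at 18.8 FPKM under nilotinib and 3.06 in vehicle, and PFN2, a profilin, at 16.3 FPKM under nilotinib and 3.47 in vehicle. FGFBP2, CHAC1, LEFTY2, C1QTNF1, RASL10A and IGJ were also among the 15, and the 14 described here spanned log2 differences from 1.94 to 3.44.

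**Figure D2:**
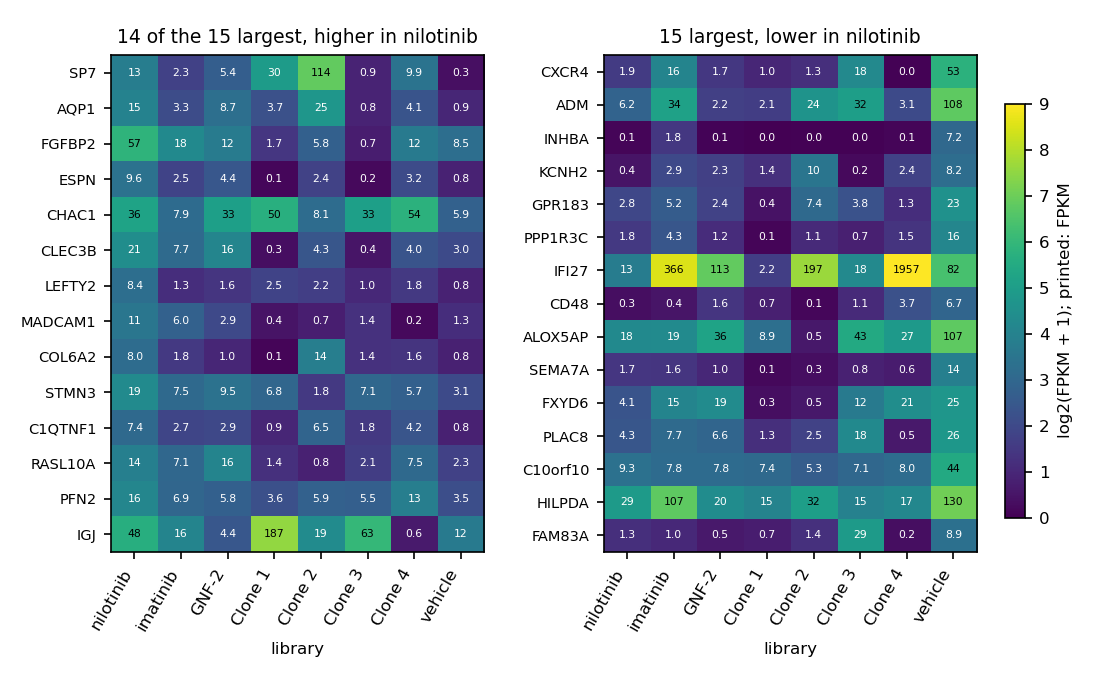
FPKM of 14 of the 15 genes furthest higher (left) and the 15 furthest lower (right) in the nilotinib population, among genes above 0 in all libraries; each row is a gene, each column a library, the number is the FPKM and the colour log2(FPKM + 1). On the right, vehicle is the highest library for most rows, with KCNH2, IFI27 and FAM83A as exceptions; on the left, a clone exceeds the nilotinib population in some rows, as for SP7 and IGJ.

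By amount of RNA the picture was another one. The largest gains in FPKM were of TPT1, the translationally controlled tumour protein, at 6615 FPKM in the nilotinib population and 4332 in vehicle, followed by 7 ribosomal protein genes from RPS18 (5545 FPKM under nilotinib, 4139 in vehicle) to RPS19 (2269 FPKM under nilotinib, 1689 in vehicle). None of these 8 was 2-fold apart, all have many pseudogenes or near-copies that can take up reads, and their log2 differences ran from 0.31 to 0.61. The largest losses were of TMSB4X, the actin-sequestering thymosin β4, at 1061 FPKM in the nilotinib population and 2506 in vehicle, and of the glycolytic ENO1 at 2966 FPKM under nilotinib and 3677 in vehicle. LGALS1, VIM, LDHA, GAPDH, ALDOA and NDRG1 followed. TMSB4X and the intermediate filament gene VIM (381 FPKM under nilotinib, 966 in vehicle) were the members of these 8 that were more than 2-fold lower, with log2 differences of -1.24 and -1.34. In the 6 further libraries TMSB4X lay between 939 and 1335 FPKM, all below vehicle.

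Genes of glycolysis and of the response to low oxygen stood lower as a group. Hypoxia-inducible factor (HIF) is stabilised when oxygen falls and turns on glucose uptake, glycolysis, vessel growth and pH control; BCR-ABL signalling is known to raise glucose uptake as well. Of 34 list members with an FPKM of at least 5, 33 were lower and 1, the glycolytic regulator PFKFB4 (111 FPKM in the nilotinib population, 97.3 in vehicle), was higher. The list's median log2 difference was -0.47, beside 0.05 over all genes, and 9 members were at least 2-fold lower, against 2.13% of all genes. CA9, a carbonic anhydrase that exports acid, was at 8.32 FPKM in the nilotinib population, against 93.8 in vehicle (-3.35). The glucose transporters SLC2A3 (104 FPKM under nilotinib, 373 in vehicle) and SLC2A1 (76.0 FPKM under nilotinib, 239 in vehicle) had log2 differences of -1.83 and -1.64; SLC2A3 shares sequence with its neighbour SLC2A14 (3.91 FPKM under nilotinib, 13.5 in vehicle), so their reads may be split. PFKFB3, which makes the activator of phosphofructokinase, was at 28.1 FPKM under nilotinib, against 111 in vehicle. ADM, described above, was the list's widest difference. VEGFA, the vascular growth factor, was at 107 FPKM under nilotinib, against 228 in vehicle, and EGLN1, an oxygen-sensing hydroxylase, at 41.6 FPKM under nilotinib and 89.6 in vehicle. The following enzymes of the pathway differed by less than 2-fold. LDHA was at 1241 FPKM under nilotinib and 1719 in vehicle, HK2 at 179 FPKM under nilotinib and 282 in vehicle, PGK1 at 975 FPKM under nilotinib and 1092 in vehicle, and GAPDH at 8982 FPKM under nilotinib and 9445 in vehicle. HIF1A, the oxygen-regulated subunit, was at 37.8 FPKM under nilotinib and 45.8 in vehicle (-0.27), and it is regulated mainly at the protein level.

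The promoters of CA9 and ADM, the members with the widest differences, are shown with the HIF core motif in capitals, ACGTG or GCGTG on either strand. They are the 250 bases before the RefSeq start on GRCh38.p14: chr9:35673678-35673927 on the plus strand for CA9 and chr11:10304823-10305072 on the plus strand for ADM.
CA9: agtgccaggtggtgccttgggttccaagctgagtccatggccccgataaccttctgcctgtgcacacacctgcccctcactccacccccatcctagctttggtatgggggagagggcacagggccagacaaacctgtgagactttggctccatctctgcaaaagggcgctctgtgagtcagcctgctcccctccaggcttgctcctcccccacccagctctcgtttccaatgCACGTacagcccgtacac
ADM: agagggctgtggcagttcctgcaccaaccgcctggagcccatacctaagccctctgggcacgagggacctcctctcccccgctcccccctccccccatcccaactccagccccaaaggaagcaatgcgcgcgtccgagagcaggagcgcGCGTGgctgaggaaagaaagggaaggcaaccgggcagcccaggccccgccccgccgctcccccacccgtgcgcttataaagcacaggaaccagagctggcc
ACGTG, which is also part of the E-box CACGTG, was present in 15 of 30 matched promoters of the list, beside 25.2% of 7673 promoters of compared genes and 18.7% of all 27305. GCGTG was present in 11 of the 30 (36.7%), beside 47.8% of promoters of compared genes. Among all 142 matched promoters of genes at least 2-fold lower, 24.6% held ACGTG, close to the share over compared genes. A match of letters is not a bound site.

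Glycogen genes with the widest differences were also lower. PPP1R3C was described above, and STBD1, which anchors glycogen to membranes, was at 19.1 FPKM in the nilotinib population and 53.6 in vehicle; it overlaps a read-through entry, FAM47E-STBD1, so its reads may be split. Of 13 members 10 were lower, with a median of -0.21, and 2 of the 13 were at least 2-fold lower, against 2.13% of all genes. PPP1R3C reached 5 FPKM through vehicle alone, so the count says little about the list. Glycogen phosphorylase PYGL stood at 221 FPKM under nilotinib and 322 in vehicle. In cholesterol synthesis, 16 of 23 members were lower and none was 2-fold apart, with a median of -0.30. INSIG1, the sterol-regulated brake on the pathway, was at 62.8 FPKM under nilotinib and 109 in vehicle.

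Genes that report on BCR-ABL signalling did not move as one. Of 17 members of the BCR-ABL and STAT5 list, 7 were higher and 10 lower (5 and 12 after median ratio rescaling), with a median of -0.17. At least 2-fold lower were 3, against 2.13% of all genes. MYC was the 1 member at least 2-fold higher, against 2.48% of all genes, and came to lie within 2-fold after median ratio rescaling. The serine kinase gene PIM1, a STAT5 target, was at 58.9 FPKM in the nilotinib population and 132 in vehicle (-1.15). The cytokine gene OSM, also a STAT5 target, was at 14.9 FPKM under nilotinib and 40.6 in vehicle (-1.38), and cyclin D2 (CCND2) at 8.24 FPKM under nilotinib and 18.5 in vehicle (-1.08). Feedback genes of the same pathway lay within 2-fold: SOCS1 was at 80.9 FPKM under nilotinib and 124 in vehicle (-0.61), SOCS3 at 19.3 FPKM under nilotinib and 28.4 in vehicle (-0.53), SOCS2 at 187 FPKM under nilotinib and 179 in vehicle, and CISH at 120 FPKM under nilotinib and 147 in vehicle. The kinase gene PIM2 was at 44.0 FPKM under nilotinib and 38.2 in vehicle. STAT5A was at 17.3 FPKM under nilotinib and 17.1 in vehicle, and STAT5B at 39.4 FPKM under nilotinib and 44.3 in vehicle. Part of the list was thus lower and part was not.

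Immediate early genes, the first to respond to growth-factor and MAPK signalling, were lower more uniformly. Of 19 members 16 were lower and 3 higher, with a median of -0.64, and 7 were at least 2-fold lower, against 2.13% of all genes. The median was -0.43 with a pseudocount of 5 and -0.48 with a minimum of 10 FPKM. FOS and JUN came to lie within 2-fold with a pseudocount of 5, and FOS reached 5 FPKM through vehicle alone. EGR1, a zinc finger transcription factor, was at 10.1 FPKM in the nilotinib population, against 44.1 in vehicle (-2.02). It was at 7.33 FPKM under imatinib, 18.4 under GNF-2 and 2.78 to 4.93 in the clones, so vehicle was the highest library. The AP-1 subunits FOS (2.40 FPKM under nilotinib, 7.46 in vehicle), FOSL1 (27.3 FPKM under nilotinib, 60.6 in vehicle) and JUN (5.11 FPKM under nilotinib, 12.3 in vehicle) had log2 differences of -1.31, -1.12 and -1.12. PHLDA1, ZFP36 and IER5 were the others. Phosphatases, Sprouty and ETS genes of MAPK feedback lay within 2-fold: DUSP1 was at 14.8 FPKM under nilotinib and 23.9 in vehicle (-0.65), DUSP5 at 9.89 FPKM under nilotinib and 15.9 in vehicle (-0.64), and ETV4 at 6.62 FPKM under nilotinib and 9.05 in vehicle (-0.40). Closer to level, DUSP6 was at 18.2 FPKM under nilotinib and 19.1 in vehicle, SPRY2 at 31.0 FPKM under nilotinib and 36.7 in vehicle, and ETV5 at 17.1 FPKM under nilotinib and 20.1 in vehicle. The promoter of EGR1 (chr5:138465229-138465478, plus strand, GRCh38.p14) is shown because it carries 2 CArG boxes, the serum response element core, in capitals.
EGR1: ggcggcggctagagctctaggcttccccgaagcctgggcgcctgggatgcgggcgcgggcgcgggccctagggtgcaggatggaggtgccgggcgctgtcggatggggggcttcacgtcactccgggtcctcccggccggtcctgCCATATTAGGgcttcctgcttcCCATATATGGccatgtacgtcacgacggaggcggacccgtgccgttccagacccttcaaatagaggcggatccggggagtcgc
A CArG box was present in 1 of 15 matched promoters of the list, which is that of EGR1, and in 1.14% of all promoters. NF-kB targets and cytokines had 4 of 9 members at least 2-fold lower, against 2.13% of all genes, and a median of -0.64. That median depended on the minimum level, at -0.13 with a minimum of 10 FPKM and -0.14 with none. PTGS2 was among the lower members that reached 5 FPKM through vehicle alone, so the count says little about the list. TNFAIP3, the A20 brake on NF-kB, was at 7.46 FPKM under nilotinib and 22 in vehicle, PTGS2 at 2.49 FPKM under nilotinib and 7.71 in vehicle, and NFKBIA was at 23.4 FPKM under nilotinib and 20.1 in vehicle.

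MYC and genes of ribosome production stood higher. MYC (chr8:128747765-128753680), the transcription factor that drives growth and ribosome synthesis, was at 269 FPKM in the nilotinib population, against 127 in vehicle (1.08; 0.99 after rescaling by median ratios). It was at 193 FPKM under imatinib, 343 under GNF-2 and 182 to 283 in the clones, and vehicle was the lowest of the 8 libraries. Of 23 members of the MYC and ribosome biogenesis list, 21 were higher and 2 lower, with a median of 0.34; after median ratio rescaling the counts were 18 and 5. RRS1, a factor of large-subunit assembly, was at 20.2 FPKM under nilotinib and 6.66 in vehicle (1.47) and was the other member at least 2-fold higher. POLR1B, a subunit of RNA polymerase I, was at 14 FPKM under nilotinib and 7.05 in vehicle, NOP16 at 26 FPKM under nilotinib and 16.4 in vehicle, and ODC1, the first enzyme of polyamine synthesis, at 72.0 FPKM under nilotinib and 48.3 in vehicle. The abundant nucleolar proteins were level, with NPM1 at 706 FPKM under nilotinib and 696 in vehicle and NCL at 184 FPKM under nilotinib and 185 in vehicle. All 20 cytosolic ribosomal protein genes on the list were higher, with log2 differences of 0.19 to 0.43 and a median of 0.28, but after quantile normalization 14 were higher and 4 lower, with a median of 0.08.

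Cell division genes stood lower while none was 2-fold apart with values as deposited. All 25 mitosis genes were lower in the nilotinib population, with log2 differences from -0.93 to -0.03 and a median of -0.55. CDK1, the mitotic kinase, was at 72.5 FPKM under nilotinib and 139 in vehicle, CCNA2 at 60.7 FPKM under nilotinib and 103 in vehicle, AURKA at 30.3 FPKM under nilotinib and 51.1 in vehicle, and MKI67 at 26 FPKM under nilotinib and 31.8 in vehicle. Of 22 DNA replication genes, 21 were lower and FEN1 (19.7 FPKM under nilotinib, 18.3 in vehicle) was higher, with a median of -0.46. RRM2, a subunit of ribonucleotide reductase, was at 34.0 FPKM under nilotinib and 66.1 in vehicle, TK1 at 47.5 FPKM under nilotinib and 90.7 in vehicle, and MCM5, part of the replicative helicase, at 33.9 FPKM under nilotinib and 57.0 in vehicle. CDK1, RRM2 and TK1, with -0.93, -0.94 and -0.92, lay just under the threshold and passed it after median ratio rescaling (-1.02 for CDK1 and RRM2). Of 12 replication-dependent histones on their list only 5 reached 5 FPKM, and the others were not compared. Those 5 were all higher, with a median of 0.63, from HIST1H2BD (9.19 FPKM under nilotinib, 6.34 in vehicle) to HIST1H2BK (32.5 FPKM under nilotinib, 14.3 in vehicle). HIST2H2BE and HIST1H2AC among them reached 5 FPKM through the nilotinib library alone, so the count says little about the list. Differences of 2-fold or more did occur among cell cycle regulators. CDKN1A, the p21 inhibitor, was at 16.2 FPKM in the nilotinib population, against 55.6 in vehicle (-1.72). CDKN2A was at 10.9 FPKM under nilotinib, against 3.23 in vehicle (1.49), and stood at 10.8 FPKM under imatinib and 16.5 FPKM under GNF-2. The inhibitors therefore differed in opposite directions.

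In the amino acid response, a few genes stood well above vehicle and most others near level. ATF4 is the transcription factor that answers amino acid lack and unfolded protein, and CHAC1, SESN2, ATF3 and SLC7A11 are among its targets. Of 25 list members 19 were higher and 6 lower (15 and 10 after median ratio rescaling), with a median of 0.18, and 4 were at least 2-fold higher, against 2.48% of all genes. CHAC1, which degrades glutathione, was at 36.0 FPKM in the nilotinib population, against 5.93 in vehicle (2.42). It was at 7.91 FPKM under imatinib, 33.1 under GNF-2 and 49.9, 8.08, 33.1 and 54.0 in Clones 1 to 4, so the libraries fell into high and low values with vehicle lowest. SESN2 was at 13.6 FPKM under nilotinib and 3.75 in vehicle, ATF3 at 24.6 FPKM under nilotinib and 9.54 in vehicle, and SLC7A11, the cystine transporter, at 6.26 FPKM under nilotinib and 2.37 in vehicle. SESN2 and SLC7A11 thus reached 5 FPKM through the nilotinib library alone, which limits what the count shows. ATF4 itself was at 503 FPKM under nilotinib and 444 in vehicle, and the asparagine synthetase gene ASNS at 58.4 FPKM under nilotinib and 58.9 in vehicle. Serine and folate genes went both ways. PSPH, the last enzyme of serine synthesis, was at 16.4 FPKM under nilotinib and 7.72 in vehicle, PSAT1 at 108 FPKM under nilotinib and 87.3 in vehicle, PHGDH at 105 FPKM under nilotinib and 129 in vehicle, and MTHFD2 at 210 FPKM under nilotinib and 267 in vehicle. Of 17 folate and nucleotide synthesis genes 12 were higher and 5 lower, with a median of 0.13 (10 and 7 after median ratio rescaling, with a median of 0.05). The CHAC1 promoter (chr15:40953221-40953470, plus strand, GRCh38.p14) carries the ATF4 element TGATGNAA on its reverse strand, in capitals.
CHAC1: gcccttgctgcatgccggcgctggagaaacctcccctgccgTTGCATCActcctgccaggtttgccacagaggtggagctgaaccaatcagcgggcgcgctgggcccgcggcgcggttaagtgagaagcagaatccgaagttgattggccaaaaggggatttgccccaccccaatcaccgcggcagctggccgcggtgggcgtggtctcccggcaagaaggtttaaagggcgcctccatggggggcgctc
The element was present in 3 of 20 matched promoters of the list, beside 3.19% of all promoters and 1.33% of those of compared genes. Among endoplasmic reticulum chaperones 13 of 19 were higher, with a median of 0.17; after median ratio rescaling 11 were higher and 8 lower, with a median of 0.09. HERPUD1, part of the degradation machinery, was at 54.9 FPKM under nilotinib and 19.3 in vehicle (1.46), and SDF2L1 at 23.8 FPKM under nilotinib and 12.6 in vehicle. HSPA5, the main chaperone, was at 154 FPKM under nilotinib and 117 in vehicle. Of 17 heat shock chaperones 6 were higher and 11 lower, with a median of -0.08. At least 2-fold lower were 2, against 2.13% of all genes. HSPA1B, whose 2 table entries and near-identical neighbour HSPA1A make its share of reads uncertain, was at 78.2 FPKM under nilotinib and 221 in vehicle, and DNAJB1 at 95.9 FPKM under nilotinib and 198 in vehicle.

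Adhesion genes included CXCR4 and other genes far below vehicle. Of 16 adhesion and chemokine receptor genes 11 were lower and 5 higher, with a median of -0.57 (-0.19 with no minimum FPKM). At least 2-fold lower were 6, against 2.13% of all genes: CXCR4, CYTIP, GPR183, SEMA7A, SELPLG and ICAM3. CXCR4 and GPR183 were among those that reached 5 FPKM through vehicle alone, so the count says little about the list. SELPLG, the P-selectin ligand of leukocytes, was at 11.2 FPKM under nilotinib and 33.8 in vehicle. ITGB2, the shared β2 integrin subunit, was the widest in the other direction at 55.5 FPKM under nilotinib and 28.0 in vehicle (0.96), while its partner ITGAL was at 17.0 FPKM under nilotinib and 16.4 in vehicle. Of 16 cytoskeletal genes 13 were lower, and S100A11 (92.5 FPKM under nilotinib, 292 in vehicle), NET1 (58.6 FPKM under nilotinib, 160 in vehicle) and VIM were more than 2-fold lower. S100A4 was the widest in the other direction, at 520 FPKM under nilotinib and 343 in vehicle. Collagen VI genes, which sit next to each other on chromosome 21, were both higher, with COL6A1 at 12.0 FPKM under nilotinib and 2.69 in vehicle.

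Lineage genes moved in both directions. Basophil, mast cell and eosinophil genes had 4 of 7 members at least 2-fold lower, against 2.13% of all genes, and a median of -1.37. The median was -0.82 with a pseudocount of 5, -1.05 with a minimum of 1 FPKM, -0.89 with a minimum of 10 and -0.14 with none. PRG2 was among the lower members that reached 5 FPKM through vehicle alone, so the count says little about the list. ALOX5AP, which presents arachidonate for leukotriene synthesis, was at 18.5 FPKM in the nilotinib population and 107 in vehicle (-2.47), and SIGLEC6 at 44.9 FPKM under nilotinib and 118 in vehicle. PRG2, the eosinophil major basic protein, was listed at 0 in the nilotinib population and at 59.3 FPKM in vehicle; the imatinib population had 34.5, and the GNF-2 population and the 4 clones were also listed at 0. LTC4S, the leukotriene C4 synthase, was higher at 62.7 FPKM under nilotinib and 30.7 in vehicle (1.01; 0.92 after median ratio rescaling). Among neutrophil and monocyte genes, CEBPE, needed late in granulocyte maturation, was at 23.8 FPKM under nilotinib and 91.5 in vehicle. CEBPA, needed earlier, was at 19.5 FPKM under nilotinib and 4.93 in vehicle (1.79), with 11.3 and 19.5 under imatinib and GNF-2 and 9.42 to 24.9 in the clones. The 2 factors thus differed in opposite directions. MYB, a progenitor factor, was at 38 FPKM under nilotinib and 90.6 in vehicle (-1.23).

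Lymphoid markers, which could mark other cells, summed to 211 FPKM over 7 compared members in the nilotinib population and 173 in vehicle. At least 2-fold higher were 2 of 7, against 2.48% of all genes, and at least 2-fold lower 2 of 7, against 2.13%. These counts include LEF1, which reached 5 FPKM through the nilotinib library alone, and CD3D, which did so through vehicle alone. The counts therefore say little about the list. CD79A, the B cell receptor subunit, was at 90.8 FPKM in the nilotinib population and 28.6 in vehicle, and in the other libraries it lay between 17.4 and 98.9. CD3D, of the T cell receptor complex, was at 1.94 FPKM under nilotinib and 32 in vehicle, and was listed at 0 in Clone 2. CD79B (34.2 FPKM under nilotinib, 18.3 in vehicle), CD7 (37.7 FPKM under nilotinib, 28.8 in vehicle) and IGLL1 (28.8 FPKM under nilotinib, 36.6 in vehicle) were also present. Further lymphoid genes were at or near 0: CD3E was at 0.040 FPKM under nilotinib and 0.30 in vehicle, CD3G at 0 FPKM under nilotinib and 0.057 in vehicle, and PAX5 at 0 in both. CD4 was at 5.44 FPKM under nilotinib and 24.3 in vehicle. The part of other cells in these values was not tested. Erythroid globin genes were at or under 0.2 FPKM in both libraries. The megakaryocyte genes ITGA2B and PF4 were under 0.4 FPKM, while GP9 was at 46.4 FPKM under nilotinib and 32.9 in vehicle.

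**Figure D3:**
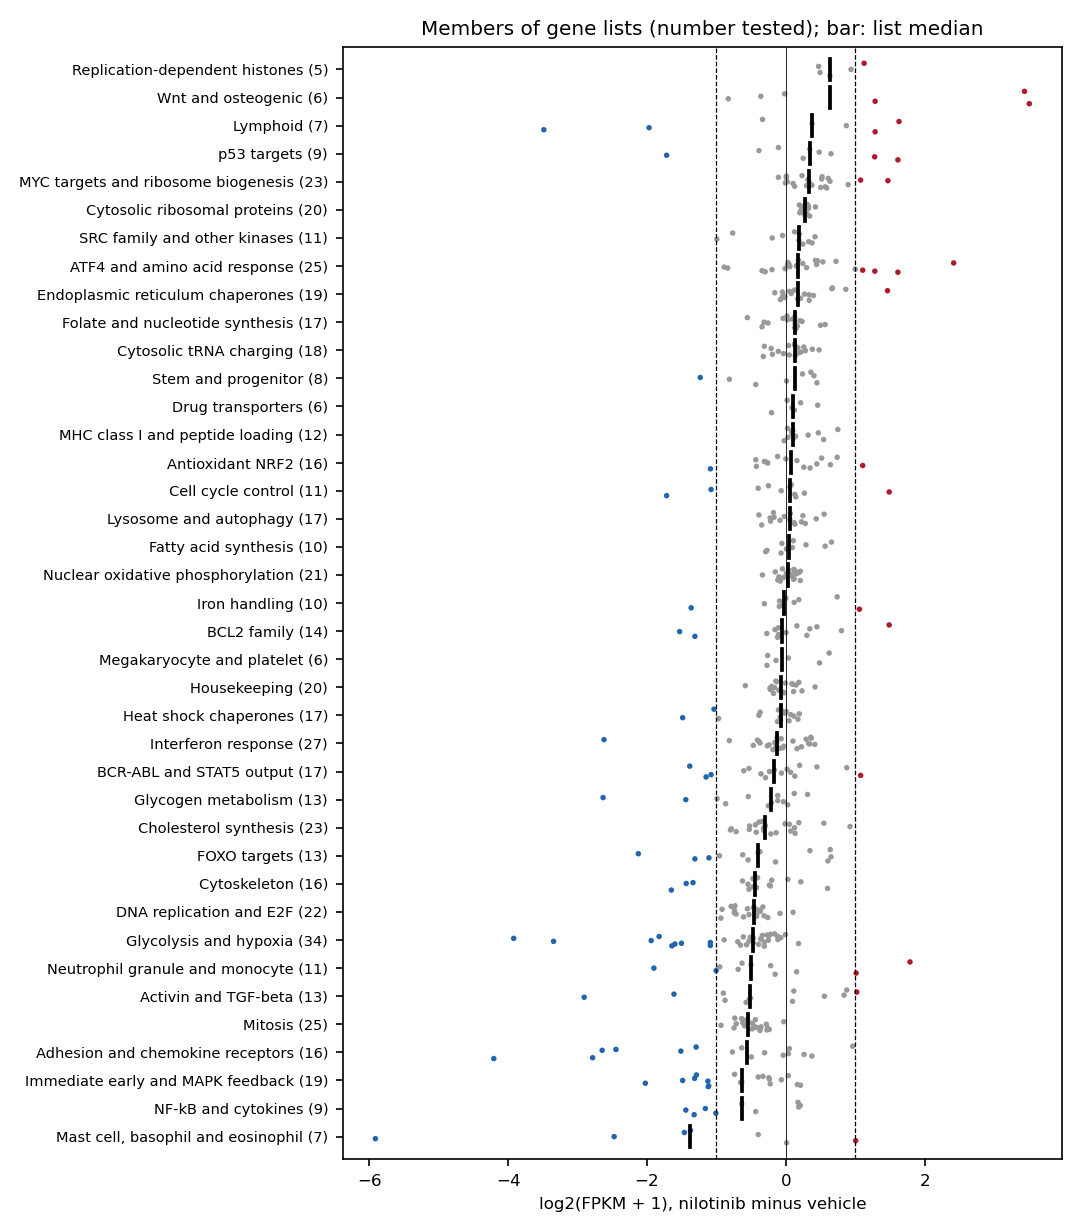
Members of each gene list with at least 5 compared genes (number in brackets) by their difference of log2(FPKM + 1), nilotinib minus vehicle; grey points are within 2-fold, red points at least 2-fold higher, blue points at least 2-fold lower, and the black bar is the list's median. Mitosis, replication and glycolysis members lie almost all left of 0 and ribosomal protein members right of it (14 of 20 after quantile normalization); the medians of 6 lists near 0 changed sign with scaling, and those lists have no stated direction.

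Drug transporters differed little, while genes of the BCL2 family differed in both directions. Of 17 drug transporters 6 reached 5 FPKM, none was 2-fold apart, and their median was 0.11. The efflux pumps ABCB1 (1.81 FPKM in the nilotinib population, 0.97 in vehicle) and ABCG2 (0.016 FPKM under nilotinib, 0.028 in vehicle) were both low, and ABCB1 reached 10.4 FPKM in Clone 4. Among SRC-family and other kinases, LYN was at 81.5 FPKM under nilotinib and 64.7 in vehicle, FYN at 29.6 FPKM under nilotinib and 22.6 in vehicle, and IGF1R at 10.2 FPKM under nilotinib and 7.36 in vehicle. None of the 11 compared members of that list was 2-fold apart with values as deposited. SRC, LCK, KIT and MET were under 0.2 FPKM in both libraries. The BCR-ABL adaptor genes CRKL (89.5 FPKM under nilotinib, 153 in vehicle) and GAB2 (24.5 FPKM under nilotinib, 49.9 in vehicle) were lower, with log2 differences of -0.77 and -0.99 (-1.08 for GAB2 after median ratio rescaling). In the BCL2 family, BCL2L11, which encodes the death protein BIM, was at 3.85 FPKM under nilotinib and 11 in vehicle (-1.31), and BCL2A1, a survival gene, at 7.18 FPKM under nilotinib and 22.6 in vehicle. BIK was at 8.70 FPKM under nilotinib and 2.46 in vehicle, and BCL2, MCL1 and BCL2L1 had log2 differences of -0.16, -0.12 and 0.45. BIK reached 5 FPKM through the nilotinib library alone and BCL2L11 through vehicle alone. With a pseudocount of 5 both came to lie within 2-fold, at 0.88 for BIK and -0.86 for BCL2L11. BIM falls among FOXO targets as well, where C10orf10 (9.26 FPKM under nilotinib, 43.8 in vehicle) and CCNG2 (11 FPKM under nilotinib, 24.8 in vehicle) were also more than 2-fold lower and 9 of 13 members were lower, with a median of -0.40.

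Ligands and regulators of the TGF-β family were mixed. Of 13 members 6 were higher and 7 lower, with a median of -0.51. INHBA was described above, and TGIF1, a corepressor of SMADs, was at 6.36 FPKM under nilotinib and 21.5 in vehicle. FSTL3, an activin antagonist, was at 11.2 FPKM under nilotinib and 5.002 in vehicle, SMAD3 at 57.2 FPKM under nilotinib and 31.5 in vehicle, and ID1, a BMP target, at 49.8 FPKM under nilotinib and 26.7 in vehicle. LEFTY2, which blocks Nodal, was at 8.42 FPKM in the nilotinib population, and between 0.80 and 2.51 in the other 7 libraries. Of 6 Wnt and osteogenic members 3 were at least 2-fold higher, against 2.48% of all genes, but all 3 reached 5 FPKM through the nilotinib library alone, so the count shows nothing about the list: SP7, LEF1 (11.6 FPKM under nilotinib, 4.18 in vehicle) and BGLAP, or osteocalcin, which was at 10.4 FPKM under nilotinib and listed at 0 in vehicle. Of the other bone genes, ALPL, IBSP and DLX5 were listed at 0 in both libraries, and RUNX2 was at 1.47 FPKM under nilotinib and 1.83 in vehicle.

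The nilotinib population was then placed among all 8 libraries. Of 9489 genes with a value in each, it was above all 7 others for 735 (7.75%) and below all 7 for 431 (4.54%), mostly by small margins. It was at least 2-fold above the highest of the others for 14 genes (0.148%) and at least 2-fold below the lowest for 1 (0.0105%). By the same count over 10310 entries at 5 FPKM in any library, imatinib had 4 and 4, GNF-2 18 and 5, the clones 20 to 146 and 48 to 103, and vehicle 44 and 8. The widest of those above 0 in every library was FGFBP2 (chr4:15961863-15964859), a secreted protein of cytotoxic lymphocytes. FGFBP2 was at 57.3 FPKM in the nilotinib population, 18.2 under imatinib, 12.5 under GNF-2, 1.66, 5.82, 0.66 and 12.2 in Clones 1 to 4, and 8.52 in vehicle. The nilotinib library was thus above every other, vehicle included. By the gap on the log2(FPKM + 1) scale CPXM1 (11.6 FPKM, others up to 3.65), LEFTY2 (8.42, up to 2.51), HMHB1 (9.76, up to 3.39) and ZDHHC2, a palmitoyltransferase (15.6, up to 6.24), followed. F2R, the thrombin receptor, came next at 45.7 FPKM, and between 5.55 and 22 in the others.

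On the low side the single gene beyond 2-fold was HMGN5, a nucleosome-binding protein, listed at 0 in the nilotinib population and at 5.80 to 12.0 FPKM elsewhere. Among genes above 0 everywhere, TFRC (chr3:195776155-195809032), the transferrin receptor that brings iron into dividing cells, lay furthest below. TFRC was at 12.7 FPKM in the nilotinib population, 24.9 under imatinib, 40.7 under GNF-2, 107, 98.1, 68.2 and 137 in Clones 1 to 4, and 34.3 in vehicle. The nilotinib library was the lowest and all 4 clones were above vehicle. Of 10 compared iron genes, 1 other was at least 2-fold apart: STEAP3, a metalloreductase for iron uptake, was at 7.05 FPKM under nilotinib and 2.86 in vehicle (1.06; within 2-fold after median ratio rescaling). The rest lay within 2-fold, with ferritin heavy chain FTH1 at 536 FPKM under nilotinib and 664 in vehicle and IREB2 at 21.4 FPKM under nilotinib and 22.9 in vehicle. The next genes below, CETN2 (8.79 FPKM, others from 12.4) and KCNQ5 (8.37, others from 11.8), lay within 1.5-fold of the nearest library.

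**Figure D4:**
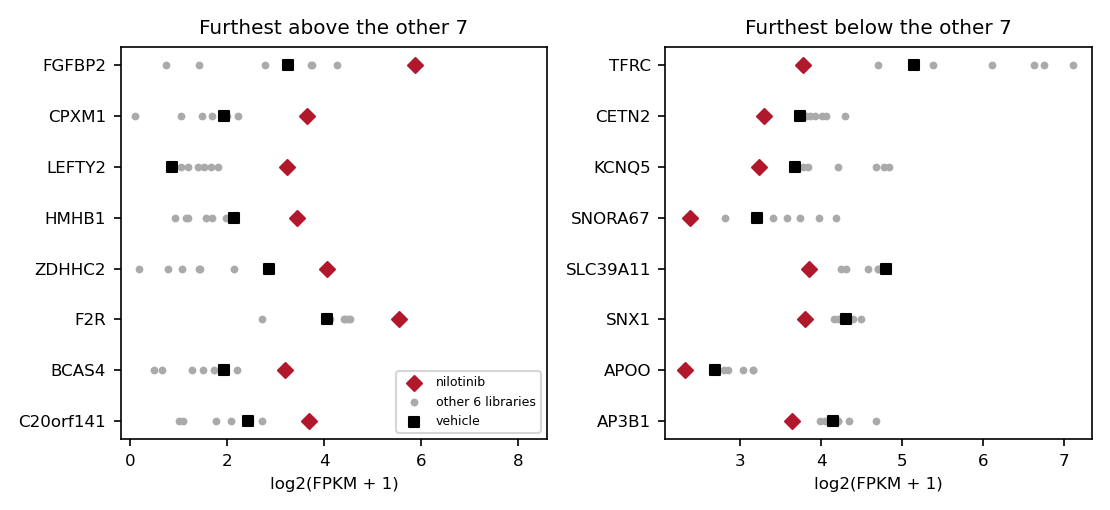
log2(FPKM + 1) of the 8 genes in which the nilotinib library (red diamond) lay furthest above (left) or below (right) the other 7, with vehicle as a black square and the 6 remaining libraries as grey points. FGFBP2 has the widest gap on the left, at 57.3 FPKM against at most 18.2 elsewhere, while on the right all gaps except that of TFRC are small.

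Some of the 439 differences rest on a listed value of 0, and the labels do not say how a 0 arose. Among compared genes, 29 were listed at 0 in the nilotinib population and 32 in vehicle, and 35 of these 61 were small RNAs or entries known by a transcript identifier alone; 19 were protein coding. ANAPC10 was listed at 0 in the nilotinib population and at 20.7 FPKM in vehicle, and S100A1 (31.4 FPKM), QTRT1 (18.9) and AIMP2 (12.4) were listed at 0 in vehicle. S100A1 was also at 0 under imatinib and in Clone 3 and at 30.8 to 80.8 FPKM in the other 4 libraries, with no value in between. MicroRNA entries are short, and MIR210, a microRNA gene induced by low oxygen, was listed at 62.7 FPKM under nilotinib and 0 in vehicle while its host transcript MIR210HG was at 7.57 FPKM under nilotinib and 10.2 in vehicle. No fold is given for such genes. Among the 9303 genes above 0 in all 8 libraries, 192 (2.06%) were at least 2-fold higher and 155 (1.67%) lower.

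Base composition moved with the difference. Transcript GC content was found for 9306 of the genes (97.7%). The genes were divided by GC content into 5 groups of equal size. In the group with the lowest GC content (median 38.3%), 0.644% were at least 2-fold higher and 1.504% lower, and in the group with the highest (61.5%), 5.32% were higher and 1.77% lower. The median log2 difference went with it, at -0.04 in the lowest group and 0.14 in the highest. Genes at least 2-fold higher had a median GC content of 56.9%, genes lower 49.1% and all genes 48.3%. The part of GC content in the differences was not tested; with the GC and length trends taken out, 193 genes were higher (188 of the 236) and 187 lower (177 of the 203).

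**Figure D5:**
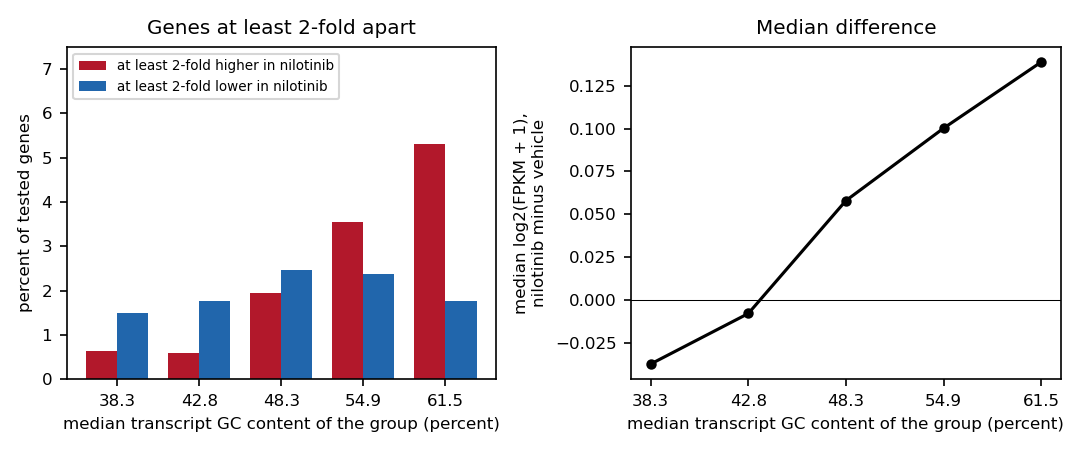
Left, percent of compared genes at least 2-fold higher (red) or lower (blue) in the nilotinib population, in 5 groups of genes of equal size by transcript GC content; right, the median difference of log2(FPKM + 1), nilotinib minus vehicle, in the same groups. The share of higher genes is 0.644% in the group of lowest and 5.32% in the group of highest GC content, while the share of lower genes stays between 1.504% and 2.47%.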

How the data were processed

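Per the labels' protocols, RNeasy Plus Mini kits gave the RNA and Illumina protocols the libraries. The values are FPKM computed by the authors, 1 per entry and library; per the submitters' processing notes TopHat 1.3, Cufflinks 1.3 and GRCh37 were used. The header names no unit, so FPKM was taken from the tool and the values. Of 31402 entries, 29 had no value in the nilotinib or vehicle library and were left out; all 19 mitochondrial entries were at 0.

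Differences are log2(FPKM + 1), nilotinib minus vehicle, for entries that reached an FPKM of 5 in either library. At least 2-fold apart means a difference of 1 or more. No test was possible with 1 library a group. Transcript length and GC content came from GENCODE release 29 (GRCh38) and biotypes and promoters from RefSeq (GRCh38.p14; 7673 compared genes matched). Python 3.11.15, numpy 2.4.6, pandas 2.3.3 and matplotlib 3.10.9 were used.

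The comparison and the 42 gene lists were chosen with earlier results of these data known. Genes were named by rule: the 15 largest differences each way among genes with a symbol and above 0 in all 8 libraries, the 8 largest FPKM differences each way, list members at least 2-fold apart and then up to 4 by size, the 8 furthest outside the other 7 libraries each way, and ABL1 and BCR. Further list members, the genes listed at 0 and adjacent genes were named after their values were seen. A few genes the rule names are not reported here. Alternatives were other pseudocounts, minimum levels, scalings, folds and entry filters; removal of GC and length trends and protein-coding genes alone were added after seeing the data.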

Additional observations from a re-analysis of the deposited data

Results flagged for a closer look

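In 4 genes the nilotinib population and another resistant population differed from vehicle in opposite directions, each by at least 2-fold. All share the 1 vehicle library, doses and days differ, and the difference was not tested. IFI27, an interferon-induced gene, was at 12.6 FPKM in the nilotinib population and 366 in the imatinib population, against 82.5 in vehicle; its log2 difference, nilotinib minus vehicle, was -2.62. ZDHHC2, a palmitoyltransferase, was at 15.6 FPKM in the nilotinib population and 1.72 in the imatinib population, against 6.24 in vehicle (1.20). EEF1A2, a translation elongation factor, was at 75.1 FPKM in the nilotinib population and 14.2 in the imatinib population, against 35.3 in vehicle (1.07). IGJ, the immunoglobulin joining chain, was at 48.5 FPKM in the nilotinib population and 4.45 under GNF-2, against 11.9 in vehicle (1.94).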

How the results depend on the processing

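No paired analysis was possible because each group has 1 library, and no replicate could be left out. Against 236 genes at least 2-fold higher, there were 103 with a pseudocount of 5, 362 with an FPKM minimum of 1 or with none, 148 with a minimum of 10, 789 at 1.5-fold and 75 at 3-fold. Against 203 lower, there were 134 with a pseudocount of 5, 546 at 1.5-fold and 83 at 3-fold. The 14 genes at least 2-fold above all others became 7 with a pseudocount of 5. Equal sums gave 217 higher and 217 lower, and quantile normalization 189 and 237. No named gene that was at least 2-fold apart changed direction under the pseudocounts, the 3 scalings or the GC and length correction. With a pseudocount of 5, 34 named genes came to lie within 2-fold; after median ratio rescaling 10 did, MYC, LTC4S, FSTL3 and CD14 among them, and 9 passed it. The median of the Wnt and osteogenic list reversed to -0.00332 with a minimum of 1 and to -0.017 among genes above 0 in all 8 libraries. Depth is known only as a rough estimate and was similar in both libraries; genes at 5 to 10 FPKM were 2-fold apart most often (7.06%).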

Other observations

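Interferon-response genes lay within 2-fold apart from IFI27. Of 27 members 9 were higher and 18 lower in the nilotinib population, with a median log2 difference of -0.13, beside 0.05 over all genes. OASL and IFIT3 were among the lower, with log2 differences of -0.82 and -0.47. ISG15 was at 76.3 FPKM under nilotinib and 87.0 in vehicle. The antiviral membrane proteins IFITM2 (451 FPKM under nilotinib, 337 in vehicle) and IFITM3 (723 FPKM under nilotinib, 576 in vehicle) were among the 9 higher members. Of 12 genes of MHC class I and peptide loading 11 were higher (8 after median ratio rescaling), with a median of 0.10. HLA-E was at 380 FPKM under nilotinib and 260 in vehicle and the class I activator NLRC5 at 14.8 FPKM under nilotinib and 8.41 in vehicle. The pentose phosphate enzyme PGD was at 82.9 FPKM in the nilotinib population and 177 in vehicle (-1.09), while the glutathione-forming GCLC was at 9.83 FPKM under nilotinib and 5.94 in vehicle. None of the 21 nuclear genes of oxidative phosphorylation was 2-fold apart, and their log2 differences ran from -0.34 to 0.21.

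Several neighbours on a chromosome were both at least 2-fold apart in the same direction, among compared genes with a symbol and above 0 in all 8 libraries. FGF23, a phosphate-regulating hormone gene next to CCND2, was at 96.9 FPKM in the nilotinib population and 241 in vehicle. THBD and CD93, endothelial and myeloid surface proteins, were at 17.1 and 41.9 FPKM in the nilotinib population, against 7.82 and 19.96 in vehicle. RGS18 and RGS2, which dampen G protein signalling, were at 9.57 and 20.6 FPKM in the nilotinib population, against 28.8 and 43.7 in vehicle. Chromosome medians of the log2 difference ran from -0.09 on chromosome 18 to 0.18 on chromosome 22, beside a standard deviation of 0.55 across genes.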
